A study of Rattus norvegicus with 4 samples.

Results

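Smooth muscle contractile genes encode the actin, myosin and actin-binding proteins that give smooth muscle cells and myofibroblasts their contractile fibres. The 10 genes considered were Acta2, Tagln, Cnn1, Cald1, Myh11, Myl9, Tpm1, Tpm2, Actg2 and Des, and their probes were taken by the gene name printed in the scanner files, once a suffix marking a predicted or mapped gene had been removed. Of these, 7 genes had a probe by that rule, with 12 probes among the 41012 gene probes of the array, and all 12 passed the filter on dim signals that left 36749 probes. No probe carried the name Acta2, Myh11 or Tpm2. Another 9 probes were found by accession, by the description in the file or by their place beside a matched probe, among them 3 of Tpm2 and 2 of Myh11; they are named as such below and are outside every count of the 7 genes. Acta2 was not analysed here.

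The study compared olfactory ensheathing cells, the glia that wrap the axons of olfactory neurons, in cultures from 2 sources in male Fischer rats, the olfactory mucosa and the olfactory bulb. Both kinds of culture were grown by 1 and the same protocol; the labels give no treatment, age or passage, and do not say whether animals were pooled. Each of 4 two-colour arrays compared 1 mucosa culture, labelled with Cy5, with 1 bulb culture, labelled with Cy3, and the arrays are biological replicates of paired samples per the labels. Values are log2 ratios of mucosa over bulb, so that 1 unit is a doubling and a negative value is a lower level in mucosa. Dyes were not swapped, so an effect of the dye and an effect of the tissue cannot be told apart in any ratio below. In these bulk cultures, more cells of a type and more RNA per cell cannot be told apart either.

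In smooth muscle, actin filaments built partly from the products of Acta2 and Actg2 slide along filaments of the myosin heavy chain Myh11, whose activity is set by phosphorylation of its light chain. The genes are controlled jointly by serum response factor, its cofactors of the myocardin family and TGF-beta signalling, and they are commonly ordered by onset: Acta2 and Tagln early, Cnn1 and Cald1 intermediate, Smtn and Myh11 late. Fibroblasts that become myofibroblasts and cultured mesenchymal cells can take up the early genes without the late ones, which is why the order is used to grade how far a cell has gone towards smooth muscle.

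Of the 7 genes, Tagln, Cnn1, Myl9 and Cald1 were higher in mucosa cultures, none was lower, and Tpm1, Actg2 and Des did not pass the test (limma, Benjamini-Hochberg adjusted over all 31894 gene names tested, threshold 0.05). Over all gene names, 3.23% passed as higher and 3.38% as lower, 6.62% in all. With each probe tested on its own, 4 of the 12 probes matched by name were called, each higher, beside 3.13% of all probes called higher, 3.42% lower and 6.54% in either direction. The median of the 7 ratios was 1.26, beside 0.011 for all gene names. This median is the ratio of Cald1 at its brightest probe matched by name. The mean over the Cald1 probes matched by name was 0.58, so the median depends on that probe. Of the 7 genes, 6 were above 0 on all 4 arrays, Des being the exception, beside 17.8% of all gene names. With each array left out in turn, 2 to 3 of the 7 genes were called higher, the count of 2 being that without replicate 2.

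Probes of an early, an intermediate and a late marker are shown first, each 60 bases long and given 5′ to 3′ as deposited. Tagln is the early marker, Cnn1 the intermediate one of largest ratio, and Myh11 the late one. For Myh11 the dimmer probe is shown, and the brighter one, used for the main late minus early difference below, is not. None of these sequences is marked in capitals.
Tagln: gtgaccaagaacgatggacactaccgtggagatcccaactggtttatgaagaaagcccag
Cnn1: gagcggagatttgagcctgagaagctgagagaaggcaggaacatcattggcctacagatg
Myh11: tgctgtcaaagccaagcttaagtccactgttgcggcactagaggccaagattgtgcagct
On the rn4 build named in the file headers, the Tagln probe lies at chr8:48902736-48903116 on the minus strand, a span of 381 bases for a probe of 60, so that it joins separated stretches of the gene. The Cnn1 probe lies at chr8:21219991-21220050 and this Myh11 probe at chr10:769508-769567, both on the plus strand and unbroken.

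Tagln, which encodes the actin-binding protein transgelin (SM22 alpha) and is among the first contractile genes to appear, had log2 ratios of 2.42, 2.78, 2.20 and 2.45 on replicates 1 to 4. All 4 arrays were far above 0 and close to each other. The mean was 2.46 ± 0.24 (SD, n = 4), a 5.51-fold higher level in mucosa (limma, adjusted p = 0.0032). Its spot signal ran from 101298 to 114447 scanner units in the mucosa channel and from 6302 to 12215 in the bulb channel, with no saturated spot.

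Cnn1 encodes calponin, an actin-binding inhibitor of the myosin ATPase. Its log2 ratios were 3.48, 2.66, 1.77 and 2.90 on replicates 1 to 4. Every array was above 0, but replicate 1 and replicate 3 differed widely. The mean was 2.70 ± 0.71 (SD, n = 4), or 6.52-fold (limma, adjusted p = 0.0073), the largest of the 7 genes.

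Cald1 encodes caldesmon, which blocks the binding of myosin to actin and exists as a long smooth muscle form and a shorter non-muscle form. The brightest of its probes matched by name, at chr4:62156243-62156302, had log2 ratios of 1.51, 1.64, 0.81 and 1.05 on replicates 1 to 4. The mean was 1.26 ± 0.39 (SD, n = 4), or 2.39-fold (limma, adjusted p = 0.0313). This call was lost without replicate 1, 2, 3 or 4, with adjusted p of 0.112, 0.136, 0.0544 and 0.0782 (limma), and with processed signals of the scanner software, where adjusted p was 0.0646.

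The probes of Cald1 disagreed. At chr4:62086886-62086945 the ratios were 0.10, -0.14, -0.16 and 1.21, with a mean of 0.25 ± 0.65 (SD, n = 4; limma over all probes, adjusted p = 0.644). At chr4:62087084-62087143 they were -0.76, -0.03, 0.16 and 1.56, with a mean of 0.23 ± 0.97 (SD, n = 4; limma over all probes, adjusted p = 0.746), on a spot whose signal lay between 64.4 and 493 scanner units over both channels. Only replicate 4 was clearly above 0 at this pair of neighbouring probes. A probe described in the file as non-muscle caldesmon, at chr4:62126457-62126516, was brighter and even over the arrays, with 2.25, 2.20, 1.99 and 2.29 and a mean of 2.18 ± 0.13 (SD, n = 4; limma, adjusted p = 0.0039). The mean over the 3 probes matched by name was 0.58 (limma, adjusted p = 0.216), so the value given for Cald1 depends on the probe. Which transcript form each probe reads was not tested, since no annotation of exons on this build was used here.

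Myh11, the smooth muscle myosin heavy chain and the usual late marker, had a pair of probes known only by their file description. The brighter, at chr10:719479-719538, had log2 ratios of 0.15, 0.43, 1.48 and 1.24 on replicates 1 to 4, with a mean of 0.82 ± 0.64 (SD, n = 4; limma, adjusted p = 0.154). Replicates 3 and 4 were high and replicates 1 and 2 low. The dimmer probe, whose sequence is printed above, had 1.14, 1.51, 1.23 and 1.25, with a mean of 1.28 ± 0.16 (SD, n = 4; limma over all probes, adjusted p = 0.0191). The brighter minus the dimmer probe was -0.46 ± 0.68 (SD, n = 4; exact two-sided sign-flip permutation test, p = 0.375, 0.433 after adjustment over 15 differences).

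Smtn, which encodes the late cytoskeletal marker smoothelin, was even over the arrays with 1.18, 1.23, 1.38 and 1.08. Its mean was 1.22 ± 0.12 (SD, n = 4; limma, adjusted p = 0.0201), and a second probe of the gene had a mean of 0.55. The early, intermediate and late markers that could be read were thus all above 0 on all 4 arrays at the probe that stood for each gene, with unequal sizes.

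**Figure D1:**
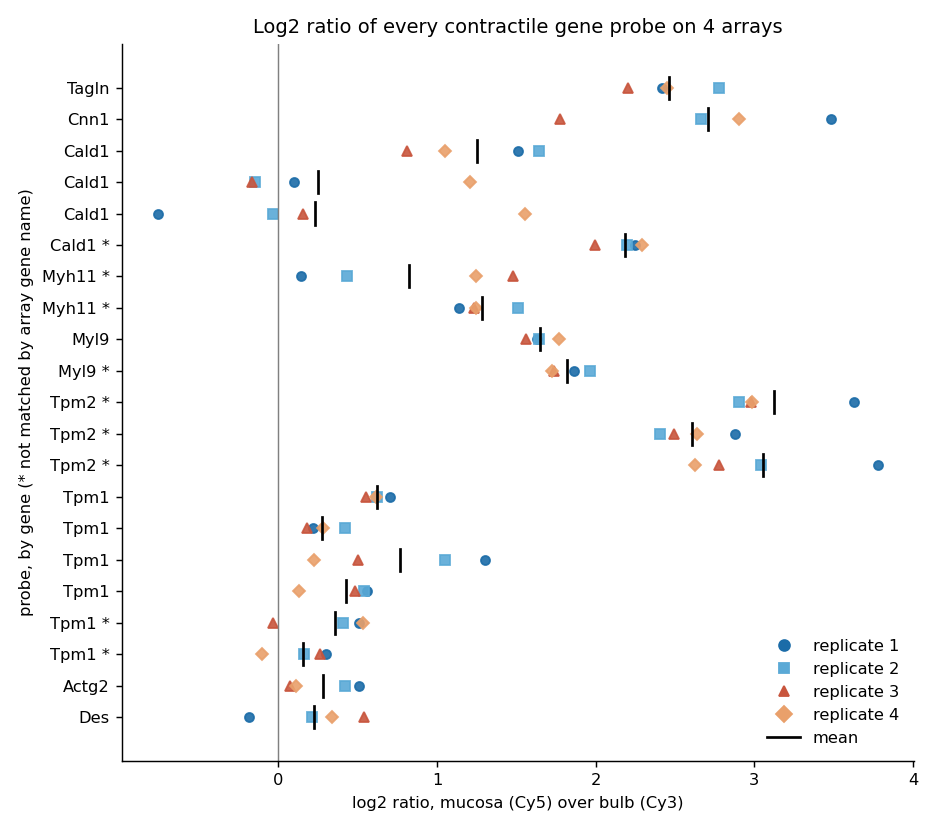
Log2 ratio of mucosa (Cy5) over bulb (Cy3) for the 12 probes matched by name and the 9 probes found another way (asterisk), 1 point per array and a black bar at the mean of 4 arrays. Tagln, Cnn1, Myl9 and Tpm2 sit above 1.5 on every array, whereas the Cald1 and Tpm1 probes differ among themselves and Actg2 and Des lie near 0.

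Whether early and late genes moved by the same amount was asked within each array. Myh11 minus Tagln was -2.27, -2.35, -0.73 and -1.21 on replicates 1 to 4, so the late gene had the lower ratio on every array, with a mean difference of -1.64 ± 0.80 (SD, n = 4). With the dimmer Myh11 probe the mean difference was -1.18 ± 0.14 (SD, n = 4), again below 0 on all 4 arrays. With 1 array left out, the difference ran from -1.94 to -1.40 at the brighter Myh11 probe and from -1.25 to -1.15 at the dimmer. The smallest two-sided p an exact sign-flip permutation test allows with 4 arrays is 0.125 (0.170 after adjustment over 15 differences). Over all 4 arrays, the difference reached it at either Myh11 probe. The probes compared differ in brightness. Bulb signals ran from 6302 to 12215 scanner units for Tagln. They were 611 to 974 at the brighter Myh11 probe and 266 to 561 at the dimmer. The part of probe and signal strength in the Myh11 minus Tagln difference was not tested, and Tagln alone stands for the early genes.

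The intermediate genes lay on both sides. Cnn1 minus Tagln was 0.24 ± 0.66 (SD, n = 4), positive on 2 arrays and negative on 2 (exact permutation p = 0.625), which leaves the order of these neighbours unsettled. Cald1 minus Tagln was -1.21 ± 0.24 (SD, n = 4), below 0 on all 4 arrays. The place of Cald1 turns on the probe: the brighter probe described as non-muscle caldesmon had 1.99 to 2.29 over the arrays, nearer to the 2.20 to 2.78 of Tagln and above the 1.77 of Cnn1 on replicate 3. At the probes that stood for the genes, Tagln and Cnn1 lay above Cald1, Smtn and Myh11 on every array.

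**Figure D2:**
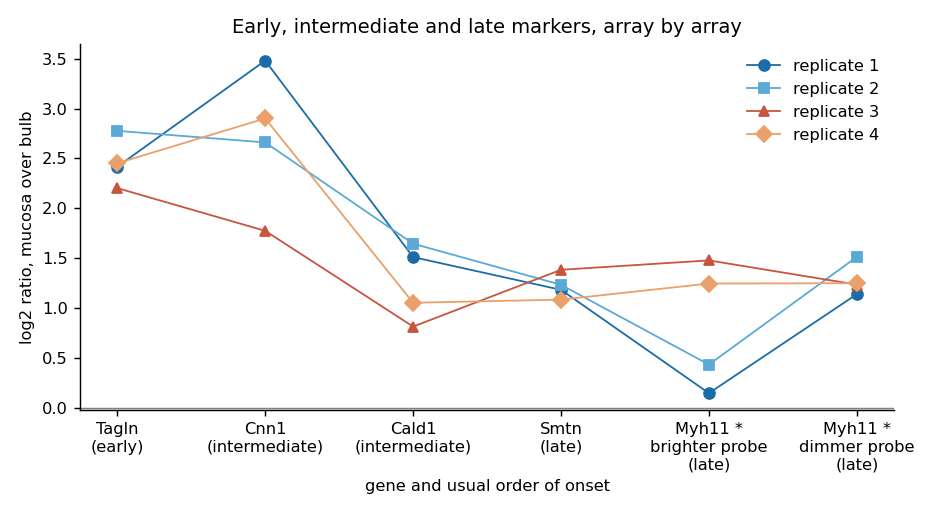
Log2 ratio of mucosa over bulb for early, intermediate and late markers, with 1 line per array (replicates 1 to 4) joining the values of the same array; the lines only guide the eye. Tagln and Cnn1 are highest on each array among the probes drawn, which for Cald1 is the brightest matched by name, and the brighter Myh11 probe (asterisk, found by its description) runs from 0.15 to 1.48.

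The arrays fell into a pattern that differed by gene. Cnn1 was lowest on replicate 3. Actg2 and the brightest Cald1 probe matched by name were higher on replicates 1 and 2 than on replicates 3 and 4. The other Cald1 probes did not share this order. Of the 4 Tpm1 probes matched by name, 3 did, whereas the brighter Myh11 probe was lower on replicates 1 and 2. The median over the 7 genes was 1.51, 1.64, 0.81 and 1.05 on replicates 1 to 4. This median is the brightest Cald1 probe matched by name on replicates 1, 3 and 4, and Myl9 on replicate 2. Tagln, Cnn1, Myl9 and Des did not have both replicates 1 and 2 above replicates 3 and 4. The median spot signal in the mucosa channel was 842, 839, 567 and 598 scanner units. That in the bulb channel was 342 to 382. The part of signal strength in these ratios was not tested.

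Myl9 encodes the regulatory light chain through which phosphorylation switches smooth muscle myosin on. Its probe at chr3:147193774-147193833 had log2 ratios of 1.63, 1.64, 1.56 and 1.77 on replicates 1 to 4, among the most even of the genes. The mean was 1.65 ± 0.088 (SD, n = 4), or 3.14-fold (limma, adjusted p = 0.0078); without replicate 2 the adjusted p was 0.0536 at the same ratio of 1.65. A probe of a light chain transcript within chr3:147192749-147193232, just beside it, had a mean of 1.82 ± 0.11 (SD, n = 4; limma, adjusted p = 0.0061).

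Tropomyosins are rods that lie along the actin filament and control access of myosin to it, and the products of Tpm1 and Tpm2 are close paralogues. A probe of each aligns with the other, and their sequences are shown because the pair had unlike ratios. Capitals mark the 35 bases that overlap when the sequences are set against each other, of which 27 are identical.
Tpm1: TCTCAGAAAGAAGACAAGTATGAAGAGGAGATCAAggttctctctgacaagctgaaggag
Tpm2: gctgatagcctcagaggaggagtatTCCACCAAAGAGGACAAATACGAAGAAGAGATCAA
The Tpm1 probe lies at chr8:71340322-71340381 and the Tpm2 probe within chr5:59997963-59998563, both on the minus strand of rn4. The part of the paralogue's transcript in the signal of either probe was not tested.

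At the Tpm1 probe the log2 ratios were 0.22, 0.42, 0.18 and 0.28, with a mean of 0.28 ± 0.11 (SD, n = 4; limma over all probes, adjusted p = 0.436). At the Tpm2 probe they were 3.78, 3.04, 2.78 and 2.63, with a mean of 3.06 ± 0.51 (SD, n = 4; limma over all probes, adjusted p = 0.0034). The lowest Tpm2 array was thus far above the highest Tpm1 array.

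The brightest Tpm2 probe, at chr5:59994138-59994197, had 3.63, 2.90, 2.98 and 2.98, with replicate 1 above the other 3. Its mean of 3.12 ± 0.34 (SD, n = 4) was an 8.71-fold higher level in mucosa (limma, adjusted p = 0.0022). The third probe of Tpm2 had a mean of 2.61 ± 0.21 (SD, n = 4; limma over all probes, adjusted p = 0.0030). All 3 carried an older locus name on the array and were assigned to Tpm2 through an accession in the RefSeq gene table.

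The brightest Tpm1 probe, within chr8:71340840-71341650, had 0.71, 0.62, 0.55 and 0.61, a narrow range above 0. Its mean was 0.62 ± 0.062 (SD, n = 4), or 1.54-fold, and it did not pass the test (limma, adjusted p = 0.116). The other Tpm1 probes matched by name had means between 0.28 and 0.77, and those found by description 0.16 and 0.36; none of the 6 Tpm1 probes was called. Tpm2 minus Tpm1 at the brightest probes was 2.50 ± 0.29 (SD, n = 4), above 0 on all 4 arrays (exact permutation p = 0.125, the smallest possible). With ratios centred on the median of each array in place of loess, Tpm1 was 0.96 and was called (limma, adjusted p = 0.0443).

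Actg2 encodes the gamma actin of visceral smooth muscle. Its probe is shown because the actins differ at few positions, with capitals marking the 43 bases over which it overlaps the probe of Actc1, cardiac actin; 36 of these are identical.
Actg2: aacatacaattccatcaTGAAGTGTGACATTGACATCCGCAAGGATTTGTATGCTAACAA
At this probe, at chr4:117735561-117735620 on the minus strand of rn4, the log2 ratios were 0.51, 0.42, 0.07 and 0.11. The mean was 0.28 ± 0.22 (SD, n = 4) and did not pass the test (limma, adjusted p = 0.449). The Actc1 probe had a mean of 0.23 ± 0.39 (SD, n = 4; limma over all probes, adjusted p = 0.580). The part of other actin transcripts in the Actg2 signal was not tested.

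Des encodes desmin, the intermediate filament of muscle cells. Its log2 ratios were -0.18, 0.22, 0.54 and 0.34 on replicates 1 to 4, the only 1 of the 7 genes with an array below 0 at the probe that stood for it. The mean was 0.23 ± 0.30 (SD, n = 4; limma, adjusted p = 0.558). Its signal was dim in both channels, from 460 to 574 scanner units in mucosa and from 196 to 232 in bulb. Actg2 minus Des was 0.05 ± 0.51 (SD, n = 4; exact permutation p = 1), so the pair at the low end has no order, while Tpm1 minus Actg2 was 0.34 ± 0.17 (SD, n = 4) and above 0 on all 4 arrays.

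**Figure D3:**
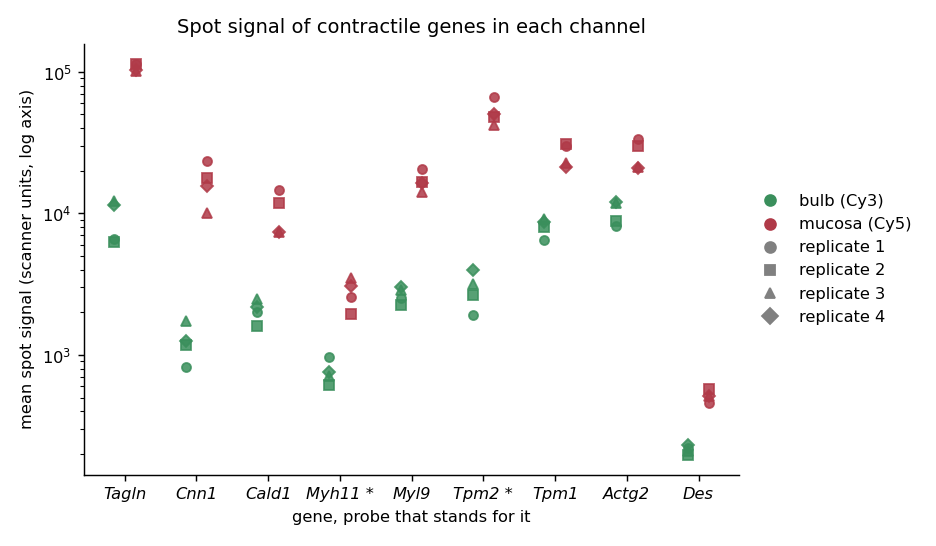
Mean spot signal of each gene's brightest probe matched by name (for asterisked genes, by description or accession) in the bulb channel (Cy3, left in each pair) and the mucosa channel (Cy5, right), before normalization, in scanner units on a log axis, with 1 marker shape per replicate. Tagln reaches 114447 units in mucosa and Des is at most 574 in both channels; the mucosa channel was the brighter one at its median spot, and levels of different probes are not comparable.

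In the order of mean log2 ratio at the brightest probe matched by name (for Tpm2 by accession and for Myh11 by description), the genes ran from Tpm2 (3.12), Cnn1 (2.70) and Tagln (2.46) through Myl9 (1.65), Cald1 (1.26), Myh11 (0.82) and Tpm1 (0.62) to Actg2 (0.28) and Des (0.23). The brighter probes found another way had 2.18 for Cald1 and 1.82 for Myl9, which turns the order of this pair. Between neighbours, Tpm2 minus Cnn1 was 0.42 ± 0.53 (SD, n = 4), positive on all 4 arrays (exact permutation p = 0.125, the smallest possible) but with a mean smaller than its SD. Myl9 minus Cald1 was 0.40 ± 0.39 (SD, n = 4), positive on 3 arrays (exact permutation p = 0.25). Cald1 minus Tpm1, a pair with Myh11 between its members in this order, was 0.63 ± 0.35 (SD, n = 4) and positive on all 4 arrays. Differences of Myh11 from Cald1 or Tpm1 were not taken. Myl9 minus Tagln was -0.81 ± 0.23 (SD, n = 4) and negative on all 4 arrays. These pairs, with Tpm1 minus Actg2 and Actg2 minus Des above, follow an order taken from the same ratios. The sign of each mean difference was thus given by that order, and these values are no independent test of it.

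Over the 17 other processing settings, Tagln, Cnn1 and Tpm2 were called higher under all 17, Myl9 under 16, Cald1 under 10, Tpm1 under 2 and Myh11 under 1. Actg2 and Des were called under none. No setting turned the direction of any of these 9 genes. Normalization between arrays, the changes of filter on dim or saturated probes and the unpaired fit left their ratios unchanged. For these probes such settings could not move a ratio, so the counts of settings above include some that largely repeat the reported result. Processed signals and the deposited ratio gave these genes the same ratios as each other.

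**Figure D4:**
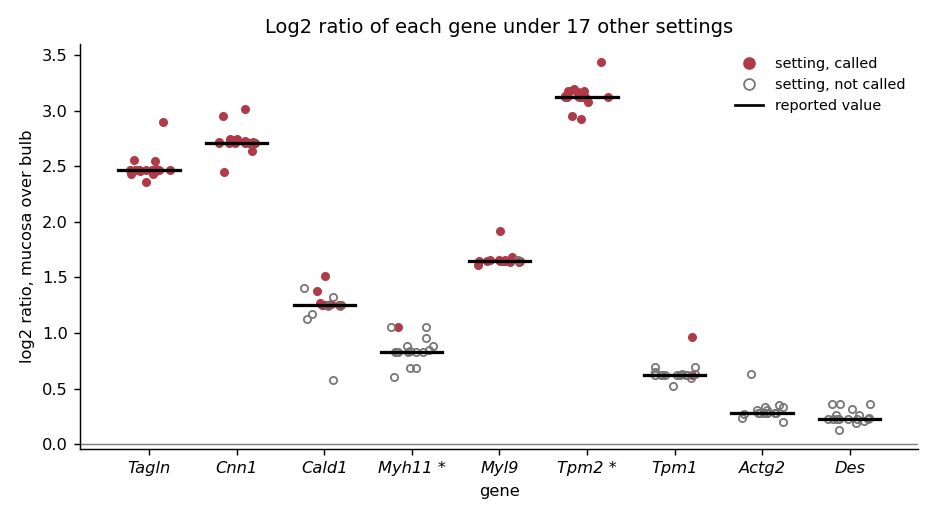
Mean log2 ratio of mucosa over bulb of each gene (asterisk, found by description or accession) as reported (bar) and under 17 other processing settings (points, filled where the limma adjusted p is below 0.05). Tagln, Cnn1 and Tpm2 stay filled throughout, and Cald1 is filled in 10 of 17.

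The other parts of the smooth muscle apparatus, a list of 33 genes for myosin regulation, dense plaques and actin anchoring, had 27 tested, of which 10 were higher and 2 lower in mucosa (limma, adjusted p under 0.05), with a median log2 ratio of 0.47. Pdlim3, which encodes an actin-associated LIM protein, had 3.55, 4.34, 4.51 and 3.75 on replicates 1 to 4 and a mean of 4.04 ± 0.46 (SD, n = 4; limma, adjusted p = 0.0015). The integrin subunit Itga8 was higher with 3.22 ± 0.51, the calcium pump regulator Pln with 3.03 ± 1.44 and the actin-binding Nexn with 2.90 ± 0.65 (SD, n = 4). Pln was uneven, with 0.99 on replicate 1 and 3.16 to 4.34 on the others. With 1 array left out, 4 to 6 of the 27 were higher and at most 1 lower, the count being 4 without replicate 2, 5 without replicate 4 and 6 without replicate 1 or 3; with the processed signals of the scanner software 6 were higher and 0 lower.

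Mylk encodes the kinase that phosphorylates the myosin light chain, and it was higher at 1.60 ± 0.59 (SD, n = 4; limma, adjusted p = 0.0260), with 3.38 at a second probe. Lmod1, the leiomodin that nucleates actin filaments in smooth muscle, was higher at 1.78 ± 0.94 (SD, n = 4; limma, adjusted p = 0.0443), with 0.41 on replicate 1 and 1.97 to 2.47 on the others. Both were above 0 on all 4 arrays.

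Among 34 regulators of these genes, 31 were tested, 7 were higher and 0 lower, with a median of 0.19. Of the TGF-beta ligands, Tgfb3 had 2.49, 2.27, 2.57 and 2.49, a mean of 2.46 ± 0.13 (SD, n = 4; limma, adjusted p = 0.0029). Tgfb1 at 0.44 ± 0.60 and Tgfb2 at 0.71 ± 0.19 (SD, n = 4) did not pass (limma, adjusted p = 0.390 and 0.0949). The TGF-beta-induced inhibitor Smad7 was higher at 1.92 ± 0.34 and the homeobox factor Prrx1 at 2.08 ± 0.81 (SD, n = 4). With 1 array left out, 3 to 4 regulators were higher: 3 without replicate 2 and 4 without replicate 1, 3 or 4.

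The central transcription factors did not pass the test. Srf, serum response factor, had 0.68, -0.50, -1.11 and -1.20, a mean of -0.53 ± 0.87 (SD, n = 4; limma, adjusted p = 0.408), and its other probes had means of 0.60 and -0.43. Myocd, the muscle-restricted cofactor myocardin, had 0.19 ± 0.34 (SD, n = 4; limma, adjusted p = 0.646). Klf4, a repressor of the contractile genes, had 1.85, 1.56, 0.67 and 0.37, above 0 on all arrays, with a mean of 1.11 ± 0.71 (SD, n = 4; limma, adjusted p = 0.0915). The CArG box, bound by serum response factor, was searched on both strands of the 250 bases upstream of start sites in RefSeq (GRCr8). It was held by 0 of 8 windows of 7 contractile genes, beside 501 of 33469 windows of all genes. These 7 need not be the 7 genes with a probe. With the box this rare among all windows, 0 of 8 is the likely count for any genes, so no conclusion is drawn. Only the exact pattern CCWWWWWWGG, with W for A or T, was counted, so boxes that depart from it would be missed. Sites outside these windows were not searched.

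The non-muscle paralogues, which every cell uses for its cytoskeleton, had 15 of 17 genes tested, 2 higher, 0 lower and a median of 0.17. Myh10, a non-muscle myosin heavy chain, was higher at 1.82 ± 0.61 (SD, n = 4; limma, adjusted p = 0.0189), with 2.09 and 1.20 at its other probes. Tpm3 was called at 1.47 ± 0.74 (SD, n = 4; limma, adjusted p = 0.0484), while its other probes ranged from -0.49 to 0.16. Actb, cytoplasmic beta actin, had 0.45 ± 0.21 (SD, n = 4; limma, adjusted p = 0.247), and no probe was matched to Actg1. With 1 array left out at most 1 of the list was called: 0 without replicate 1 or 2, and 1 without replicate 3 or 4.

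Cell type lists were read beside these genes. Of 20 markers of ensheathing and Schwann glia, all were well above background on 4 arrays in both channels, 11 were lower in mucosa and 0 higher, with a median of -1.31, among them Sox10 (-1.87 ± 0.55, SD, n = 4), S100b (-1.49), Fabp7 (-2.94) and Cdh19 (-2.44). Their summed normalized signal was 49206 to 53388 in mucosa and 99507 to 132128 in bulb. With 1 array left out, 1 to 5 of them were called lower: 1 without replicate 1, 2 without replicate 2, 5 without replicate 3 and 3 without replicate 4.

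Of 20 fibroblast markers, 19 were tested, 6 were higher and 3 lower, with a median of 0.48. The cell surface protein Thy1 (3.90), the microfibril gene Mfap5 (3.99) and the collagen chain Col1a2 (2.27) were higher, and Fbln1, fibulin 1, was lower (-4.15). The summed signal was 394676 to 431909 in mucosa and 231941 to 289472 in bulb. With 1 array left out, 4 to 5 were higher, and 2 were lower without replicate 1 but 1 without replicate 2, 3 or 4. Of 12 markers of pericytes and vascular mural cells, 11 were tested, 3 were higher and 2 lower, with a median of -0.32 and summed signals of 51169 to 68486 in mucosa and 65562 to 97497 in bulb. Cspg4 (2.65), Anpep (2.39) and Pdgfrb (1.30) were higher and Heyl (-1.58) was lower. With any 1 array left out 2 of this list were higher, and 1 was lower without replicate 3 and 0 without replicate 1, 2 or 4.

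Of 32 striated muscle genes, 26 were tested and 2 were higher, Tnnt3 (2.26) and Actn3 (1.22), with 0 lower and a median of 0.14. With any 1 array left out 1 was higher, and without replicate 4 there were 2 lower. Astrocyte markers had 3 of 9 lower and 0 higher: Slc1a3 (-1.85), and Gfap (-1.44) and S100b (-1.49), both shared with the glial list. These 3 calls became 0 without replicate 1 or 2 and 1 without replicate 3 or 4. Endothelial markers had 1 higher (Tek, 1.51) and 1 lower (Cdh5, -1.57) of 9 tested, and both counts were 0 without any 1 of the 4 arrays and with processed signals. Macrophage markers had 1 higher (Cd74, 3.10) and 0 lower of 9, and epithelial markers 1 higher (Krt8, 2.64) and 1 lower (Cdh1, -2.40) of 9. No cell type list had all its markers at background. The part of other cell types in the contractile gene ratios was not tested.

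**Figure D5:**
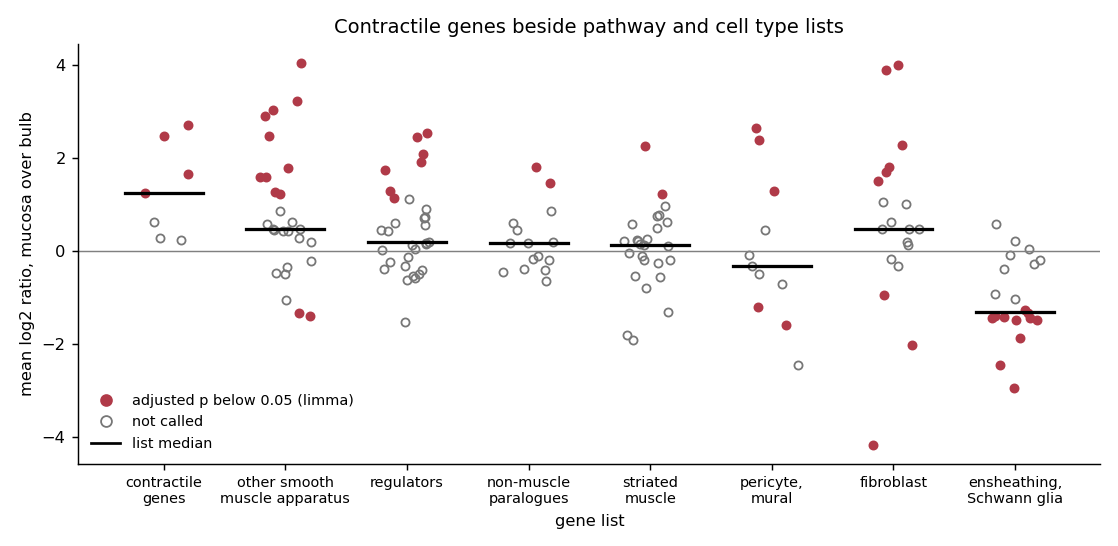
Mean log2 ratio of mucosa over bulb of every tested gene (1 point per gene; 4 arrays) in the contractile genes matched by name and 7 further lists, filled where the limma adjusted p is below 0.05, with a bar at each list's median. The contractile genes have the highest median (1.26) of the lists drawn and the glial markers the lowest (-1.31). The median of 1.26 is Cald1 at its brightest probe matched by name, and the mean over the Cald1 probes matched by name was 0.58.

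The genes whose ratios over the 4 arrays were most like the median profile of the 7 genes, by root mean square difference among 13799 gene symbols, were Fgfr2 (0.187), Atp10a (0.191), Frmpd1 (0.201), Itpr1 (0.204) and Nucb2 (0.218). That profile is the brightest Cald1 probe matched by name on replicates 1, 3 and 4, and Myl9 on replicate 2. The likeness is therefore largely to 1 probe and shows no pattern shared by the contractile genes. Fgfr2, a fibroblast growth factor receptor, had log2 ratios of 1.64 on replicate 1 and 0.81 on replicate 4. Itpr1, the calcium channel of the endoplasmic reticulum, had 1.39, 2.02, 0.76 and 1.00, with its lowest values on replicates 3 and 4.

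Across the whole array, 82.8% to 91.1% of spots per channel were well above background and no spot was saturated. Pearson correlations of the ratios between arrays, across gene names, which are not independent, ran from 0.35 to 0.54. Nothing in the labels says that the cultures came from separate animals, so p-values measure the spread between these 4 arrays.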

How the data were processed

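Rat olfactory ensheathing cell cultures from mucosa (Cy5) and bulb (Cy3) were compared on 4 two-colour Agilent arrays. Per the labels' protocols, cDNA made from poly-A RNA went through a global PCR whose steps are undisclosed, which can change transcript ratios, and 250 ng of cDNA per channel were labelled. Per the file headers, the deposited spot and background signals are unnormalized intensity values from Feature Extraction 10.5.1.1 (the submitters' processing notes name 9.1), the deposited ratio is log10 of Cy5 over Cy3 after background subtraction and dye normalization, and coordinates are rn4. The deposited value table differed from these log10 ratios by less than 1e-06 on each array over its 45018 features; 0 of its columns lacked a sample. All arrays had 1 scan time, so scan time was not tested as a batch.

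Signals were corrected by normexp (offset 50) and loess-normalized within arrays in limma 3.58.1 (R 4.3.3); the loess curve ignored control and outlier spots, and a probe's remaining spots were averaged. The filter kept probes for which, on 3 or more arrays and in the same channel, a share of 0.5 or more of the spots was well above background. The brightest probe of a gene name, as the file gives it, stood for the name. Log2 ratios were tested against 0 with lmFit and eBayes, and p-values adjusted over all names, or over all probes where so stated. The array holds each pair, so the ratio is the paired difference. Differences between genes within arrays were tested by exact sign-flip permutation. Names were updated through a RefSeq table (GRCr8): of the probes, 10835 matched by accession, 5196 by symbol, 3478 by synonym, and 21503 kept the file's name. With no match to Acta2, Tagln alone stood for the early genes, and Myh11 was taken by description. No annotation of exons or UTRs was used. Fits were tested on simulated data. Python 3.11.15, pandas 2.3.3, numpy 2.4.6 and matplotlib 3.10.9 were used.

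Named were all contractile genes with every probe, up to 4 called genes of largest ratio per list, Smtn, Lmod1, Mylk, Srf, Myocd, Tgfb1, Tgfb2, Tgfb3, Klf4, Actb and Actg1 whatever their result, and the 5 genes of most alike profile; a called regulator that this rule names is not reported here, and members and lists were chosen with earlier results of these data known. Alternatives covered background, normalization, filters, probe choice, weights, pairing and each array left out.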

Additional observations from a re-analysis of the deposited data

Results flagged for a closer look

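Of 76 sets of 4 array values examined, 4 had an array whose distance to the nearest other exceeded Dixon's critical share of the range; chance gives about 1 such set in 20. The brightest Tpm2 probe had 3.63 on replicate 1 and 2.90 to 2.98 on the others. The within-array difference Tpm2 minus Cnn1 was 1.20 on replicate 3 and 0.08 to 0.24 on the others. Thy1 had 2.83 on replicate 4 and 4.14 to 4.31 on the others, and Sox10 had -1.04 on replicate 3 and -2.15 to -2.14 on the others.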

How the results depend on the processing

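As reported, 1031 gene names were higher and 1079 lower. The range with 1 array left out was 282 to 540 higher and 263 to 525 lower over names, and 315 to 610 higher and 288 to 620 lower over probes; fewer arrays enter these fits. With the 2 channels as unpaired samples, without the replicate block that the array provides, 1636 names and 1840 probes were higher, 5 of the 7 contractile genes were called and Tpm1 gained its call (adjusted p = 0.0376, limma). Processed signals gave 696 lower names and 802 lower probes, and the deposited ratio 694 and 802; the cause was not tested. Median centring gave 1467 higher and 996 lower names, so that 59.6% of calls were higher in place of 48.9%. The 7 contractile genes had 2 to 3 calls with 1 array left out, 2 without replicate 2, and 3 to 5 under the other settings. At the brighter Myh11 probe, Myh11 minus Tagln stayed between -1.94 and -1.40 under all 17 settings, and at the dimmer between -1.42 and -0.93. The mean over the Myh11 probes was 1.05 (adjusted p = 0.0399, limma). Normalization between arrays and leaving out saturated probes change no ratio by construction. The number of arrays, and dim signals at Des and at the Cald1 probe of lowest signal, limit the precision.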
